A study of Homo sapiens with 30 samples.

Results

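The genes described here are 45 neighbours of ABCC1 on chromosome 16, from C16orf45 to RBBP6 and slightly beyond, as they were read in 30 messenger RNA libraries of SUM190, an established line of inflammatory breast cancer cells. The 45 symbols were chosen by measured values, namely that genes around ABCC1 lay higher in doxorubicin-resistant than in parental cells under DMSO, so every value of that contrast is a description and has no test. All 45 were in the deposited table of 20114 symbols, and all 45 were among the 12743 genes with at least 1 CPM (reads of the gene scaled to a common library total) in at least 2 libraries. ABCC6 passed that minimum in 0 of the 24 parental and paclitaxel-resistant libraries and in 6 of 6 doxorubicin-resistant ones, so its presence among the genes fitted already requires a difference. C16orf45 reached 1 CPM in 8 libraries, 2 of them outside the doxorubicin-resistant line, and CRYM reached it in 15, 9 of them outside that line. The other 42 genes did so in all 30 libraries.

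The libraries form 15 groups of 2. Parental cells (labelled Par) had a DMSO group and were given doxorubicin (65 nM and 1 µM in separate groups) or paclitaxel (2.5 nM and 10 nM). Further parental groups had 15 µM ruxolitinib alone, and 2.5 nM paclitaxel combined with ruxolitinib. A doxorubicin-resistant derivative (DR) received DMSO or doxorubicin at 350 nM or 1 µM. A paclitaxel-resistant derivative (PR) had groups in DMSO, in 6.5 nM and in 10 nM paclitaxel, in 15 µM ruxolitinib alone, and in 6.5 nM paclitaxel combined with ruxolitinib. The labels write the ruxolitinib dose as 15 nM in both combinations. Cells were seeded, drugs followed 24 h later, and exposure lasted 72 h. All 3 lines are SUM190, and each resistance state is represented by 1 derivative line, so a line and its resistance cannot be told apart. The labels do not say whether a derivative is a clone or a pool, or whether the libraries of a group came from separate cultures, and p-values measure the spread between these libraries only.

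ABCC1 encodes a multidrug resistance protein of the ATP-binding cassette family, which pumps anthracyclines such as doxorubicin out of cells. Genes that sit side by side on a chromosome need share no function, but they share the DNA segment, and a segment that is gained, lost or opened can carry its genes along with it. The neighbours of ABCC1 have unlike roles: they include proteins of the centrosome, of RNA surveillance and translation, of the respiratory chain, of the Golgi and endosomes, and of the ubiquitin system. DNA copy number was not analysed here, and in bulk libraries more copies of a gene, more RNA per copy and a change in the mix of cells cannot be told apart.

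Sequence just upstream of 4 listed genes is printed, from near the peak of the expression profile in DMSO and from its far edge. NDE1 and FOPNL flank ABCC1 on one side and had the largest ratios of all listed genes with more than 1 CPM in each group, while RBBP6 and TNRC6A are next to each other in the order of tested genes and lie on either side of the far edge. Each run is the 250 bases before the gene's start, 5′ to 3′ on the gene's strand, from RefSeq on GRCh38.p14, a later build than the GRCh37 (hg19) alignment of the libraries. Capitals mark GGGCGG, known as the core of the GC box, and CCAAT, the element of that name, each on either strand. They are chr16:15643132-15643381 on the plus strand for NDE1, chr16:15888604-15888853 on the minus strand for FOPNL (CEP20 in RefSeq), chr16:24539316-24539565 on the plus strand for RBBP6 and chr16:24729401-24729650 on the plus strand for TNRC6A.
NDE1: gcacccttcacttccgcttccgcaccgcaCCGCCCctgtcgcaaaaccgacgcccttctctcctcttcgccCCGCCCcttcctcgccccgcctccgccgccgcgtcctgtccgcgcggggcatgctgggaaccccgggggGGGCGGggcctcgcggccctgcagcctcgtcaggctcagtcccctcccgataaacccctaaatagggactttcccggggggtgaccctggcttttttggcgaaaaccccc
FOPNL: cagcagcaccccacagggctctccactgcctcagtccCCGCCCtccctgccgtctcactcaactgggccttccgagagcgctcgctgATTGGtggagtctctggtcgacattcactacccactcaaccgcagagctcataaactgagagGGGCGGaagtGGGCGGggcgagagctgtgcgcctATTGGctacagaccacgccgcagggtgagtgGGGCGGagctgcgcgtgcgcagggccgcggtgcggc
RBBP6: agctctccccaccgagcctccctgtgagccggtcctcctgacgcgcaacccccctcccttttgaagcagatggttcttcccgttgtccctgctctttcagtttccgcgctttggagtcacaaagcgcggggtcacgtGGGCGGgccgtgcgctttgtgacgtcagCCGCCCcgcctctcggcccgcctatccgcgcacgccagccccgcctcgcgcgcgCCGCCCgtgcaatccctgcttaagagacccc
TNRC6A: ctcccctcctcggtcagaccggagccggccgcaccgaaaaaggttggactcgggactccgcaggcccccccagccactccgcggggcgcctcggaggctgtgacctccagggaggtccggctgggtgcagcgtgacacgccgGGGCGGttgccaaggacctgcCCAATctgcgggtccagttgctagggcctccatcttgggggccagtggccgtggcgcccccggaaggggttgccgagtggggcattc

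These windows are rich in G and C on both sides of the edge: NDE1 has 70.4% GC, FOPNL 66.8%, RBBP6 68.0% and TNRC6A 71.6%. GGGCGG occurred 3 times upstream of NDE1, 4 times upstream of FOPNL, 3 times upstream of RBBP6 and 1 time upstream of TNRC6A. RefSeq promoter windows were matched for 31 of the 45 listed genes. GGGCGG was present in 20 of these 31 (64.5%) and in 42.3% of all 27305 windows of the same length. CCAAT was present in 11 (35.5%), against 33.0% of all windows. TATAAA was found in 1 (3.23%), against 11.1%, and TTCNNNGAA, the spacing that STAT proteins bind, was found in 1 (3.23%), upstream of LCMT1, against 6.78%. The median GC content was 68.0% over the 31 windows and 58.0% over all windows. All windows include genes below the minimum on CPM, and the windows of fitted genes alone were not compared. These shares therefore cannot be read as a trait of the run. A match is a string of letters and not a measured binding site.

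Total reads in genes were 18443749 to 32669995 per library, and the limit left by finding no read, 3 reads, was 0.0947 to 0.163 CPM, for counting error only. The libraries carried the epithelial markers that fit their label, with EPCAM at 306 to 441 CPM and ERBB2 at 1516 to 3736 CPM. Of the markers of other cell types measured, CD3E, COL1A2 and DCN had medians of at most 0.0161 CPM, while PTPRC reached 5.96 CPM and VWF 7.08 CPM in their highest libraries. Replicates differed along transcript GC content to unlike degrees: across the pair in parental DMSO it had a Spearman rho with GC of -0.79 over 12683 genes, and across the pair in parental 1 µM doxorubicin of 0.72. The DR groups at DMSO and at 1 µM doxorubicin had a rho of 0.26 and 0.02. Listed transcripts had a median GC content of 47.7%, near the 48.0% of all genes fitted.

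In DMSO, the listed genes formed a plateau that began at C16orf45 and ended at RBBP6, with a peak around ABCC1. Here and below a log2 difference is a difference of log2(CPM + 1), which is smaller than the log2 of the CPM ratio where CPM is low, and the value after ± is its standard error. ABCC1 itself measured 74.0 and 89.9 CPM in the parental libraries and 553 and 543 CPM in the DR libraries, a ratio of 6.69. The median log2 difference between DR and Par was 0.94 over the 45 listed genes and -0.01 over all 12743 genes. By gene order in RefSeq, 52 fitted genes lie from C16orf45 to RBBP6, of which 41 are listed and 11 are not, ABCC1 among the latter. The remaining 4 listed genes (TNRC6A, ARHGAP17, LCMT1 and ZKSCAN2) lie beyond RBBP6.

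**Figure D1:**
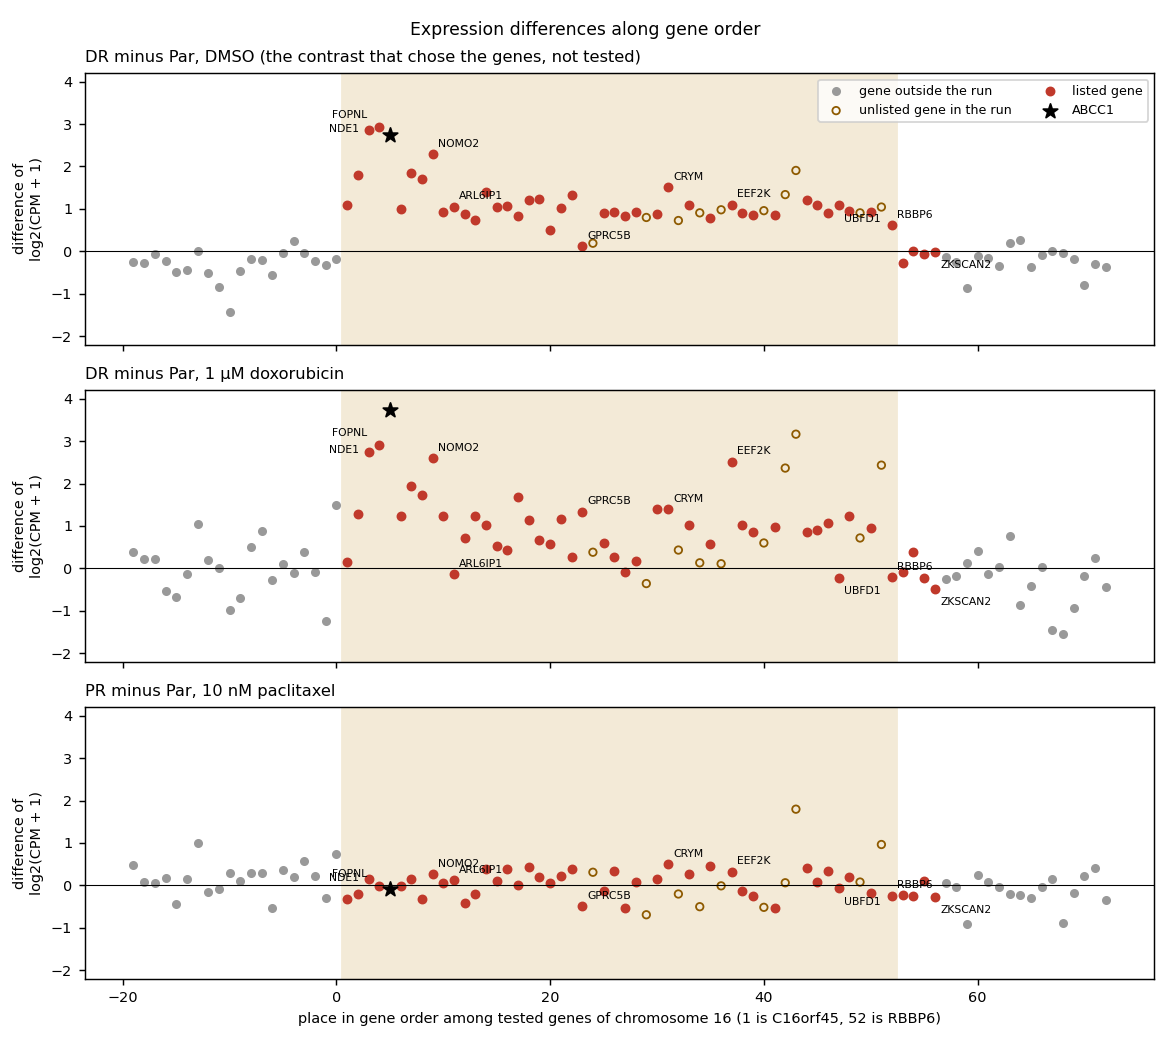
Difference of log2(CPM + 1) (vertical axis) for fitted genes in their order on chromosome 16 (horizontal axis, shaded from C16orf45 at 1 to RBBP6 at 52, with 20 genes on either side), for DR minus Par in DMSO, DR minus Par at 1 µM doxorubicin, and PR minus Par at 10 nM paclitaxel. In DMSO all 41 listed genes of the shaded run lie above 0, with a step down to TNRC6A after RBBP6; at 1 µM doxorubicin the run is more scattered, and in the PR line it is centred near 0.

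In DMSO the first edge was abrupt. MPV17L, the last fitted gene before C16orf45, had a CPM ratio of 0.88 between DR and Par in DMSO, and RRN3 and NTAN1 before it had ratios of 0.80 and 0.84. C16orf45 measured 0.20 and 0.48 CPM in the parental and 1.94 and 1.77 CPM in the DR libraries, a ratio of 5.41 between low values. The far edge, in the same contrast, was lower in height but as clear in position. RBBP6 had a ratio of 1.53, TNRC6A of 0.83, ARHGAP17 of 1.00, LCMT1 of 0.95 and ZKSCAN2 of 0.99. The 20 fitted genes before C16orf45 had a median log2 difference of -0.25, and the 16 unlisted genes among the 20 after RBBP6 one of -0.18. The 4 listed genes beyond RBBP6 had a median of -0.04, so in DMSO they belong to the flank by level although they are on the list. Both edges were read in the contrast that chose the genes. At 1 µM doxorubicin, outside that choice, the same genes did not mark them. There RRN3 had a ratio of 0.42, NTAN1 of 0.93, MPV17L of 2.91 and C16orf45 of 1.17. At the far end RBBP6 had 0.87, TNRC6A 0.94, ARHGAP17 1.31, LCMT1 0.85 and ZKSCAN2 0.70.

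Inside the run, 2 levels were seen in DMSO, the contrast that chose the genes. The 7 listed genes from C16orf45 to NOMO2 other than ABCC6 had a median CPM ratio of 4.99 (3.51 to 7.62). The 33 from RPS15A to RBBP6 had a median of 1.92, and the middle of these ratios, from the lower to the upper quartile, ran from 1.83 to 2.15; over all fitted genes the quartiles were 0.86 and 1.14. NOMO2, the last gene of the high part in gene order, had a ratio of 4.99, and the next, RPS15A, one of 1.91. Across the 41 listed genes of the run, the log2 difference was smaller with more genes between the gene and ABCC1 (Spearman rho -0.43). Over the 33 genes from RPS15A to RBBP6 alone the rho was -0.05. At 1 µM doxorubicin, outside that choice, the rho was -0.35 over the 41 genes and -0.03 over the 33. These correlations are across genes of the same libraries and carry no p-value. The 11 unlisted genes of the run had a median ratio of 2.06.

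**Figure D2:**
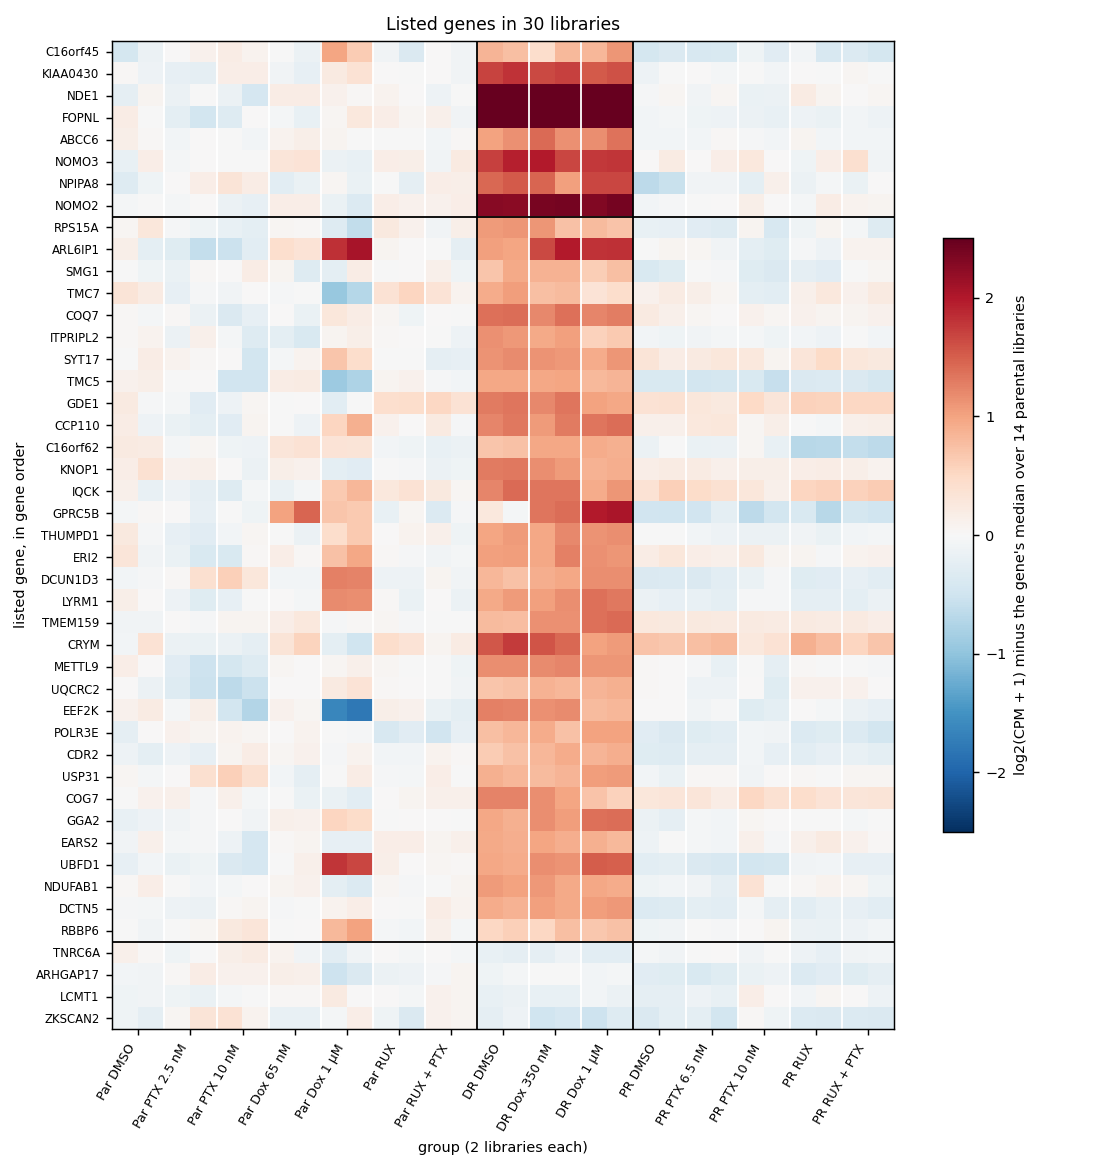
Colour gives log2(CPM + 1) of each listed gene (rows, in gene order) minus its median over the 14 parental libraries, in each of the 30 libraries (columns, by group); horizontal lines separate C16orf45 to NOMO2, RPS15A to RBBP6 and the genes beyond RBBP6. The 6 DR libraries are above the parental median in nearly all rows of the run, and parental cells at 1 µM doxorubicin show separate rows above it (ARL6IP1, UBFD1) and below it (EEF2K).

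Of the 3 genes of the centrosome and cilium, NDE1 and FOPNL lie close to ABCC1 and CCP110 lies further along the run. NDE1, a dynein regulator of the centrosome and spindle, ranged from 31.9 to 49.5 CPM in 14 parental libraries (median 43.3) and from 38.6 to 50.1 CPM in 10 PR libraries (median 44.1), against 294 to 326 CPM in 6 DR libraries (median 310). FOPNL, a centriolar satellite protein needed to build cilia, ranged from 64.1 to 105 CPM in parental (median 88.0), from 77.6 to 85.5 CPM in PR (median 80.9) and from 674 to 792 CPM in DR libraries (median 730). No parental or PR library came near the lowest DR library for either gene. CCP110, which caps centrioles, had DR values of 117 to 148 CPM against parental values of 45.3 to 104 CPM.

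**Figure D3:**
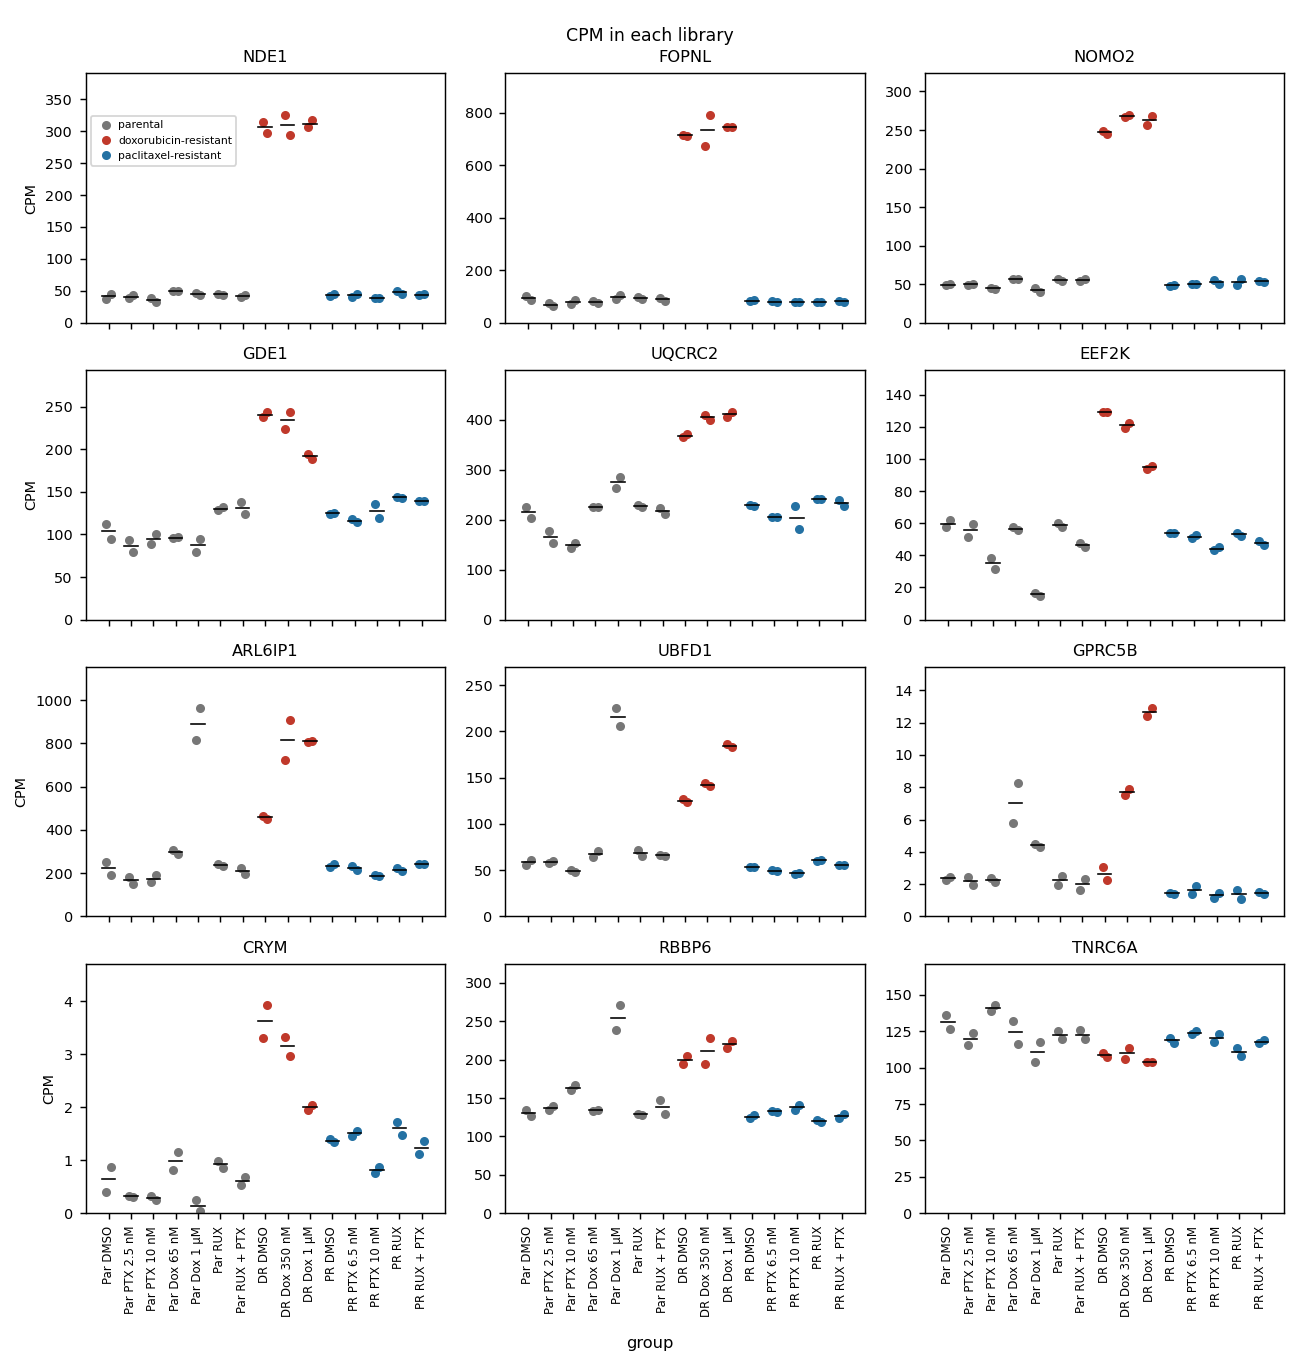
CPM of 12 listed genes in each library, as dots, with the mean of each group as a line; groups are on the horizontal axis and lines are told apart by colour. NDE1, FOPNL and NOMO2 have all 6 DR libraries far above the other 24, whereas for ARL6IP1, UBFD1 and RBBP6 parental cells at 1 µM doxorubicin reach or pass the DR values, and TNRC6A has no such gap.

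Among genes of RNA handling and translation, the median ratio in DMSO was 1.89 over 8 genes. SMG1, the kinase that acts on UPF proteins in nonsense-mediated decay, measured 375 and 352 CPM in parental and 611 and 733 CPM in DR cells. EEF2K, which phosphorylates elongation factor eEF2 and slows elongation, measured 57.8 and 61.8 CPM in parental and 129 and 129 CPM in DR cells. KIAA0430 (MARF1), an RNA-binding protein next to NDE1, measured 91.4 and 81.4 CPM in parental and 290 and 316 CPM in DR cells. POLR3E, a subunit of RNA polymerase III, had a ratio of 1.87, THUMPD1, a cofactor of tRNA acetylation, one of 1.88, and RPS15A, a protein of the small ribosomal subunit, one of 1.91. In none of these did a parental library reach a DR library in DMSO. TNRC6A, a scaffold of microRNA silencing beyond the edge, had both DR libraries below both parental ones. The genes were chosen on this contrast, and the share of all genes without overlap in it is not given. Such gaps therefore cannot be read as a trait of a role.

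The 4 mitochondrial genes had ratios of 1.71 to 2.75. UQCRC2, a core protein of respiratory complex III, measured 226 and 203 CPM in parental and 365 and 371 CPM in DR libraries. COQ7, a hydroxylase of ubiquinone synthesis, measured 14.7 and 13.7 CPM in parental and 38.6 and 39.3 CPM in DR libraries. NDUFAB1, the mitochondrial acyl carrier protein, had a ratio of 1.93, and EARS2, the mitochondrial glutamyl-tRNA synthetase, one of 1.88. All 4 had DR values above both parental values. This is the contrast that chose the genes, and the share of all genes without overlap in it is not given.

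The 6 genes of membrane traffic had ratios of 1.43 to 2.37. COG7, of the Golgi tethering complex, and GGA2, a clathrin adaptor, had ratios of 2.37 and 2.15. DCTN5, a dynactin subunit, had 1.92, SYT17, of the synaptotagmin family, 2.18, ARL6IP1, which shapes the endoplasmic reticulum, 2.06, and C16orf62 (VPS35L), of the endosomal retriever complex, 1.43. C16orf62 was the lowest of the 6, at 60.8 and 59.4 CPM in parental and 84.5 and 86.8 CPM in DR libraries. These did not overlap, again in the contrast that chose the genes and with no share of all genes given.

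Membrane proteins differed widely among themselves. NOMO2, a membrane protein of the endoplasmic reticulum that modulates Nodal signalling, ranged from 39.8 to 57.0 CPM in parental and 245 to 270 CPM in DR libraries. ABCC6, an ABC transporter next to ABCC1, ranged from 0 to 0.162 CPM in parental, from 0 to 0.0954 CPM in PR and from 1.10 to 1.80 CPM in DR libraries, so its level outside DR is at the floor of 3 reads and no fold is given. TMC5 and TMC7, of the transmembrane channel-like family, had ratios of 1.80 and 1.71, GDE1, a glycerophosphodiester phosphodiesterase, 2.32, ITPRIPL2 2.09 and TMEM159, which acts with seipin in lipid droplet assembly, 1.86. GPRC5B, an orphan receptor, was the exception, with 2.27 and 2.45 CPM in parental and 3.05 and 2.27 CPM in DR cells in DMSO, values that overlap.

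The ubiquitin group had ratios of 1.53 to 2.14: UBFD1 2.14, USP31, a deubiquitinase, 1.83, DCUN1D3, of the cullin neddylation family, 1.82, and RBBP6, a RING ubiquitin ligase that binds RB and p53, 1.53. Of the other genes, CRYM, a thyroid hormone-binding protein, measured 0.40 and 0.87 CPM in parental and 3.31 and 3.92 CPM in DR libraries. IQCK had a ratio of 2.73, METTL9, a histidine methyltransferase, 2.12, KNOP1, a nucleolar protein, 2.05, LYRM1 1.93 and CDR2 1.83. NPIPA8, of a primate-specific duplicated family, measured 4.65 and 5.54 CPM in parental and 18.0 and 19.6 CPM in DR libraries.

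Whether the listed genes differ between the lines can be tested only in libraries that took no part in choosing them, and the matched dose of 1 µM doxorubicin is the only such comparison of DR with Par cells. In limma, 39 of the 45 listed genes differed, where 71.4% of all genes did. Of these, 35 were higher in DR cells at a Benjamini-Hochberg adjusted p under 0.05, where 38.9% of all 12743 genes were higher, and 4 of 45 were lower, where 32.5% of all genes were lower. Without ABCC6 the counts were 34 and 4 of 44. The median log2 difference was 0.94 over the listed genes and 0.06 over all genes. It was 1.94 over the 7 genes from C16orf45 to NOMO2 without ABCC6, 0.89 over the 33 from RPS15A to RBBP6 and -0.16 over the 4 beyond RBBP6. The libraries are different ones from those in DMSO, but the DR line is the same, so the test repeats the measurement in that line and does not extend it to another.

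All 3 centrosomal genes were higher, where 38.9% of all genes were. FOPNL measured 744 and 745 CPM in DR and 90.7 and 105 CPM in parental cells at this dose, a log2 difference of 2.92 ± 0.11 (limma adjusted p = 1.2e-16). NDE1 measured 306 and 317 CPM in DR and 46.8 and 44.0 CPM in parental cells, a log2 difference of 2.75 ± 0.10 (limma adjusted p = 7.8e-17). CCP110 was nearer, at 142 and 148 CPM against 80.5 and 104 CPM (0.66 ± 0.12, limma adjusted p = 4.2e-05). NDE1 and FOPNL had ratios of 6.87 and 7.60, close to the 7.42 and 7.62 seen in DMSO, while the ratio of CCP110 was 1.57 at this dose and 2.36 in DMSO.

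EEF2K was the listed gene of the lower part of the run with the largest difference at this dose. It measured 93.5 and 95.9 CPM in DR and 16.7 and 14.8 CPM in parental cells, a log2 difference of 2.52 ± 0.08 (limma adjusted p = 4.3e-17) and a ratio of 6.02, against 2.16 in DMSO. At 65 nM the parental libraries measured 57.6 and 55.7 CPM. TMC5 measured 704 and 724 CPM in DR and 213 and 234 CPM in parental cells (1.67 ± 0.07, limma adjusted p = 6.1e-16). Of the 8 genes of RNA handling and translation 6 were higher and 0 lower, where 38.9% of all genes were higher and 32.5% lower. ABCC6 passed the minimum on CPM through DR libraries alone. The other 8 membrane proteins were all higher, as were all 4 mitochondrial genes and 5 of the 6 traffic genes. Among the 44 listed genes without ABCC6, 34 were higher, and no role was tested against the others. NOMO2, at 257 and 268 CPM in DR and 44.8 and 39.8 CPM in parental cells, had the smallest adjusted p of the listed genes (2.61 ± 0.08, limma adjusted p = 4.3e-18), and NOMO3 had a difference of 1.94 ± 0.16 (limma adjusted p = 1.9e-10).

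The 10 listed genes that were not higher in DR cells at 1 µM doxorubicin are given in 2 sets by place, those in the run and those beyond RBBP6. ARL6IP1 measured 804 and 813 CPM in DR cells, but 818 and 961 CPM in parental cells at this dose, where the other 12 parental libraries had no more than 306 CPM (log2 difference -0.13 ± 0.12, limma adjusted p = 0.33). UBFD1 measured 187 and 183 CPM in DR and 225 and 206 CPM in parental cells (-0.22 ± 0.07, limma adjusted p = 0.0079), and RBBP6 216 and 225 CPM in DR and 238 and 271 CPM in parental cells (-0.21 ± 0.08, limma adjusted p = 0.027). DCUN1D3 (-0.09 ± 0.10), LYRM1 (0.17 ± 0.09), ERI2 (0.28 ± 0.12) and C16orf45 (0.16 ± 0.15) did not pass the test, with limma adjusted p values of 0.46, 0.098, 0.052 and 0.37. In each of these 7 genes the parental level at 1 µM was well above that at 65 nM. The same held for IQCK, CCP110, THUMPD1 and SYT17 (ratios of 1.92, 1.74, 1.55 and 1.51), which were called higher in DR cells. Why the 7 were not higher was not tested.

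The other 3 lie beyond RBBP6. ZKSCAN2, a zinc finger protein, measured 10.2 and 11.7 CPM in DR and 14.5 and 16.9 CPM in parental cells (-0.48 ± 0.12, limma adjusted p = 0.00085), and LCMT1, which methylates the catalytic subunit of a protein phosphatase, 23.7 and 22.2 CPM in DR and 29.2 and 24.9 CPM in parental cells (-0.22 ± 0.08, limma adjusted p = 0.018). TNRC6A did not pass (-0.09 ± 0.07, limma adjusted p = 0.31). The fourth, ARHGAP17, a GTPase-activating protein, was higher in DR cells (0.38 ± 0.07, limma adjusted p = 6.4e-05), with parental libraries at 30.6 and 34.0 CPM and DR libraries at 41.7 and 42.8 CPM. The number of lower calls was 2 without the first parental library at 1 µM and 2 without the second DR library at 1 µM. The number of higher calls was 34 or 35 without any 1 of the 4 libraries. For these and later counts under other fits or with a library left out, the share of all genes called is not given. A change in such a count cannot be read as particular to the listed genes. IQCK, at 14.9 and 16.8 CPM in DR and 12.1 and 13.7 CPM in parental cells, was the weakest of the higher calls (0.27 ± 0.12, limma adjusted p = 0.049) and did not pass with median-of-ratios scaling (adjusted p = 0.14), without the first parental library (0.27) or without the second DR library (0.28).

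A count over single libraries that again leaves out both DMSO groups of the choosing contrast gave a similar picture. All 4 doxorubicin-treated DR libraries lay above all 22 remaining parental and PR libraries for 33 of the 45 listed genes, where 3.37% of all 12743 genes did so. Without ABCC6 it was 32 of 44. They lay below all 22 for 0 of 45, where 2.56% of all genes did so. The 33 were 7 of the 8 genes from C16orf45 to NOMO2, 26 of the 33 from RPS15A to RBBP6 and 0 of the 4 beyond RBBP6. Of the 20 fitted genes on either side of the run, none was above, and of the 494 other fitted genes of chromosome 16, 5 were above. Below all 22 lay 2 of the 20 before the run, 0 of the 20 after it and 37 of these 494, where 2.56% of all genes did so. Within the run, 4 of the 11 unlisted genes were above.

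The 8 listed genes of the run outside the 33 were mostly stopped by a drug-treated parental group. For C16orf45, ARL6IP1, DCUN1D3, LYRM1, UBFD1 and RBBP6 the highest of the 22 libraries was a parental one at 1 µM doxorubicin. GPRC5B was stopped by a parental library at 65 nM doxorubicin, with 8.29 CPM against a lowest treated DR value of 7.53 CPM, and TMC7 by a parental ruxolitinib library, with 17.9 CPM against 15.6 CPM. By role, the genes above were 3 of 3 of the centrosome, 7 of 8 of RNA handling and translation and 4 of 4 of the mitochondrion. They were also 5 of 6 of membrane traffic, 6 of 8 membrane proteins other than ABCC6, 1 of 4 of the ubiquitin group and 6 of 11 of the others. Of all fitted genes, 3.37% were above. ABCC6, which passed the minimum through DR libraries alone, was above as well.

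**Figure D4:**
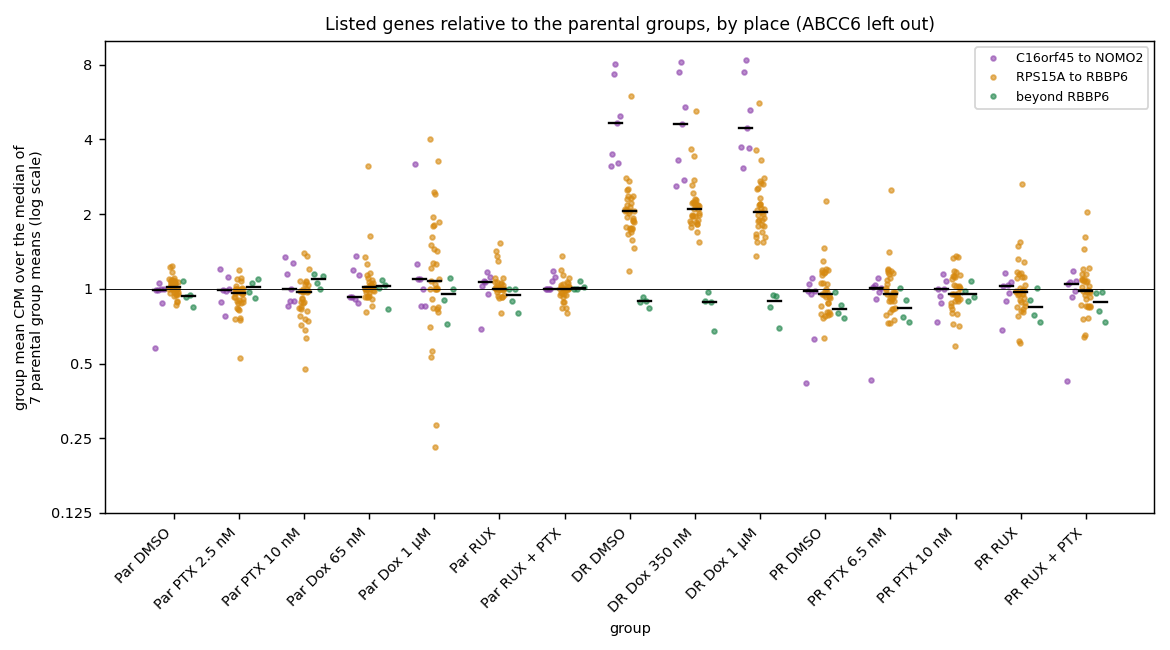
Mean CPM of each group over the median of the 7 parental group means (vertical axis, log scale) for 44 listed genes (dots, ABCC6 left out) and the median of each set (bars), by group; colours give the place of the gene. The sets near ABCC1 and from RPS15A to RBBP6 have their highest medians in the 3 DR groups, at 4.45 to 4.65 and 2.05 to 2.11, and the genes beyond RBBP6 stay near 0.89 there. The DR and parental DMSO groups chose the genes.

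The height of the plateau was similar in the 3 DR groups. The DR and parental DMSO groups chose the genes, so the DMSO values are a description. Parental DMSO also enters the parental median used here. Relative to the median of the 7 parental group means, the 33 genes from RPS15A to RBBP6 had a median ratio of 2.05 in DR cells in DMSO, 2.11 at 350 nM and 2.05 at 1 µM doxorubicin. For the 7 genes near ABCC1 other than ABCC6 it was 4.65, 4.62 and 4.45. The same ratio over all genes was 1.00 in each DR group. In the PR groups the median of the 33 genes was 0.95 to 0.98, and in the parental groups it was 0.96 to 1.08.

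Within the DR line, doxorubicin dose was tested as 1 µM against 350 nM. Of the 45, 12 differed, where 21.5% of all genes did; 5 were higher at 1 µM in limma, where 9.97% of all genes were, and 7 were lower, where 11.6% were. GPRC5B measured 7.53 and 7.88 CPM at 350 nM and 12.4 and 12.9 CPM at 1 µM (0.65 ± 0.15, limma adjusted p = 0.0038). NPIPA8 (0.43 ± 0.14), UBFD1 (0.37 ± 0.07), GGA2 (0.28 ± 0.07) and TMEM159 (0.25 ± 0.06) were the other higher genes, with limma adjusted p of 0.026, 0.00052, 0.0031 and 0.0057. CRYM measured 3.33 and 2.96 CPM at 350 nM and 1.96 and 2.05 CPM at 1 µM (-0.47 ± 0.13, limma adjusted p = 0.014), and COG7 39.3 and 34.5 CPM against 28.4 and 25.6 CPM (-0.44 ± 0.09, limma adjusted p = 0.0016).

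TMC7, ITPRIPL2, EEF2K, GDE1 and KNOP1 were also lower at 1 µM, by -0.37, -0.36, -0.35, -0.28 and -0.22. NDE1, FOPNL and NOMO2 had differences of 0.01 ± 0.10, 0.03 ± 0.11 and -0.03 ± 0.08, none of which passed the test. The 12 calls became 19 with transcript GC content and length corrected for, 6 without the second library at 350 nM, 6 without the first at 1 µM and 7 without the second at 1 µM.

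The parental line was tested at 1 µM against 65 nM doxorubicin. Here 31 of the 45 differed, where 73.9% of all genes did; 18 listed genes were higher, where 33.8% of all genes were, and 13 were lower, where 40.1% were. The 4 genes of the ubiquitin group were all higher at 1 µM. UBFD1 went from 63.7 and 70.4 CPM to 225 and 206 CPM (1.67 ± 0.07, limma adjusted p = 1.4e-15), DCUN1D3 from 21.6 and 21.7 CPM to 56.0 and 55.0 CPM (1.32 ± 0.10, limma adjusted p = 5.7e-11) and RBBP6 from 133 and 135 CPM to 238 and 271 CPM (0.92 ± 0.08, limma adjusted p = 4.6e-10). USP31 was the fourth (0.24 ± 0.10, limma adjusted p = 0.036) and did not pass without the second library at 65 nM or at 1 µM (adjusted p = 0.26 and 0.28).

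ARL6IP1 went from 306 and 289 CPM to 818 and 961 CPM (1.57 ± 0.12, limma adjusted p = 5e-11) and LYRM1, a small protein of a family tied to mitochondrial assembly, from 27.0 and 25.9 CPM to 62.6 and 61.3 CPM (1.20 ± 0.09, limma adjusted p = 3.9e-11). Of the 9 membrane proteins, 6 were lower at 1 µM, where 40.1% of all genes were, and 1, ITPRIPL2, was higher. TMC5 fell from 452 and 460 CPM to 213 and 234 CPM (-1.02 ± 0.07, limma adjusted p = 1.9e-12) and TMC7 from 11.8 and 12.0 CPM to 5.69 and 6.95 CPM (-0.82 ± 0.11, limma adjusted p = 2.7e-07). EEF2K fell most, from 57.6 and 55.7 CPM to 16.7 and 14.8 CPM (-1.79 ± 0.08, limma adjusted p = 8.7e-15). CRYM was at 0.82 and 1.16 CPM at 65 nM and at 0.24 and 0.04 CPM at 1 µM, within reach of the floor (-0.80 ± 0.13, limma adjusted p = 9.4e-06), and ARHGAP17 fell from 49.2 and 48.0 CPM to 30.6 and 34.0 CPM (-0.58 ± 0.07, limma adjusted p = 1.7e-07).

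ABCC1 fell at the higher dose in parental cells, from 83.6 and 84.8 CPM to 41.6 and 40.3 CPM (-1.02 ± 0.09, limma adjusted p = 1e-09). FOPNL lies beside ABCC1, and NDE1 lies beyond FOPNL. NDE1 had a difference of -0.12 ± 0.10 (limma adjusted p = 0.26). FOPNL passed the test (0.27 ± 0.11, limma adjusted p = 0.025), but its difference was 0.01 (adjusted p = 0.90) once GC content and length of transcripts were corrected for. In DR cells the ABCC1 values were 574 and 531 CPM at 350 nM and 549 and 565 CPM at 1 µM.

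**Figure D5:**
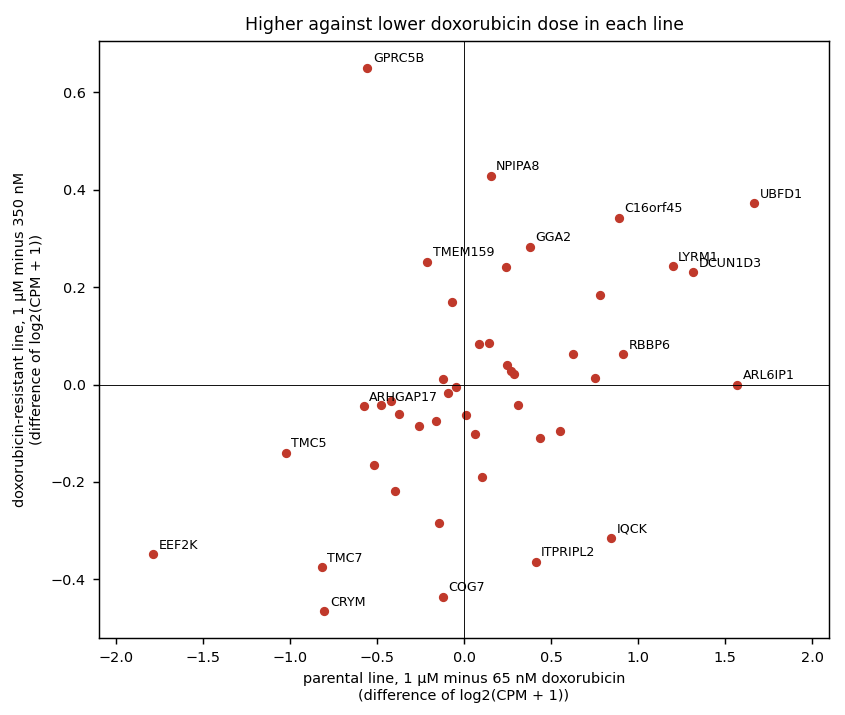
Difference of log2(CPM + 1) between 1 µM and 65 nM doxorubicin in parental cells (horizontal axis) and between 1 µM and 350 nM in DR cells (vertical axis), 1 dot per listed gene. UBFD1 lies to the right at 1.67 and above 0 at 0.37, EEF2K to the left at -1.79 and below 0 at -0.35, and GPRC5B at -0.56 and 0.65 has opposite signs in the 2 lines.

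The lower doses differ between the lines (65 nM and 350 nM), so these dose differences are set side by side and not compared. UBFD1 and GGA2 were higher and EEF2K, TMC7, CRYM and KNOP1 were lower at 1 µM in both lines. GPRC5B and TMEM159 were lower at 1 µM in parental and higher in DR cells, and ITPRIPL2 the reverse. The GPRC5B values in order of the labelled dose were 2.27 and 2.45 CPM in DMSO, 5.78 and 8.29 CPM at 65 nM and 4.48 and 4.32 CPM at 1 µM in parental cells. In DR cells they were 3.05 and 2.27 CPM in DMSO, 7.53 and 7.88 CPM at 350 nM and 12.4 and 12.9 CPM at 1 µM. GPRC5B overlaps IQCK on the opposite strand, and the strand setting of the authors' counting is not given in the sources used here.

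In the PR line the run lay near the level of all genes. In DMSO, a description since the parental DMSO libraries chose the genes, the median log2 difference between PR and Par was -0.11 over the listed genes and -0.01 over all genes, with a range of -0.51 to 0.54. At 10 nM paclitaxel, 23 of the 45 differed, where 49.7% of all genes did; 13 were higher in PR than in parental cells, where 27.3% of all genes were, and 10 were lower, where 22.3% were. The median log2 difference was 0.07, against 0.03 over all genes. UQCRC2, at 227 and 182 CPM in PR and 143 and 154 CPM in parental cells (0.45 ± 0.09, limma adjusted p = 0.0002), and GDE1, at 136 and 120 against 88.5 and 100 CPM (0.43 ± 0.10, limma adjusted p = 0.0007), were among the higher genes, with CRYM (0.50 ± 0.13), COG7 (0.42 ± 0.09) and IQCK (0.39 ± 0.12).

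USP31, at 55.4 and 59.5 CPM in PR and 90.0 and 78.8 CPM in parental cells (-0.54 ± 0.10, limma adjusted p = 9.7e-05), and DCUN1D3 (-0.54 ± 0.10) were the lowest, followed by GPRC5B (-0.49 ± 0.15), SMG1 (-0.42 ± 0.13) and CDR2 (-0.26 ± 0.07). NDE1 (0.14 ± 0.10) and FOPNL (-0.01 ± 0.11) did not pass the test, with limma adjusted p of 0.25 and 0.93. The 23 calls became 14 without the second parental library and 13 without the first PR library.

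Ruxolitinib blocks the Janus kinases. Under 15 µM of it, 9 of the 45 differed, where 28.9% of all genes did; 5 were higher in PR than in parental cells, where 15.5% of all genes were, and 4 were lower, where 13.3% were. CRYM (0.44 ± 0.13), SYT17 (0.40 ± 0.12) and COG7 (0.34 ± 0.09) were the highest, followed by TMEM159 (0.20 ± 0.06) and KNOP1 (0.20 ± 0.07). C16orf62 measured 31.6 and 32.1 CPM in PR and 49.2 and 47.5 CPM in parental cells (-0.59 ± 0.07, limma adjusted p = 1.5e-06), and the other lower genes were GPRC5B (-0.46 ± 0.15), TMC5 (-0.44 ± 0.07) and DCTN5 (-0.22 ± 0.07). The 9 calls became 18 with the correction for GC content and length, 5 or 3 without the first or second parental library and 4 or 5 without the first or second PR library.

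In parental cells, 10 nM against 2.5 nM paclitaxel called 8 of 45, where 27.5% of all genes were called: 5 higher listed genes, where 12.2% of all genes were higher, and 3 lower, where 15.4% were. EEF2K fell from 51.7 and 59.7 CPM to 38.6 and 31.7 CPM (-0.65 ± 0.08, limma adjusted p = 8.7e-06) and TMC5 from 396 and 403 CPM to 287 and 285 CPM (-0.48 ± 0.07), with UBFD1 as the third (-0.25 ± 0.07). KIAA0430 (0.37 ± 0.07), USP31 (0.30 ± 0.10), CDR2 (0.29 ± 0.07), RBBP6 (0.26 ± 0.08) and TNRC6A (0.23 ± 0.07) rose. The 8 calls became 13 with the correction for GC content and length and 3 in a fit on parental libraries alone, 13 without the first library at 10 nM and 5 without the second.

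Ruxolitinib added to 2.5 nM paclitaxel in parental cells called 14 of 45, where 27.9% of all genes were called: 11 higher genes, where 15.1% of all genes were higher, and 3 lower, where 12.9% were. GDE1 rose from 93.3 and 79.2 CPM to 138 and 124 CPM (0.60 ± 0.10, limma adjusted p = 0.00016), followed by UQCRC2 (0.39 ± 0.09), FOPNL (0.36 ± 0.11), METTL9 (0.34 ± 0.08) and TMC7 (0.33 ± 0.11). POLR3E fell from 52.0 and 50.4 CPM to 34.4 and 41.4 CPM (-0.43 ± 0.09, limma adjusted p = 0.0017), with EEF2K (-0.25 ± 0.08) and KNOP1 (-0.24 ± 0.07). The 14 calls became 4 in a fit on parental libraries alone, 3 without the second library of 2.5 nM paclitaxel and 1 without the first library of the combination.

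In the PR line, the number of listed genes called for a drug depended on the fit. With 6.5 nM paclitaxel against DMSO, limma called 0 of 45, where it called 0.0942% of all genes, 0.0706% higher and 0.0235% lower; 2 had an unadjusted p under 0.05, and voom on recovered reads called 0; the correction for GC content and length and a fit on PR libraries alone each called 1. With 10 nM, 5 were called, where 13.6% of all genes were; 3 were higher, where 6.62% were, and 2 lower, where 6.99% were: NPIPA8 (0.55 ± 0.14), LCMT1 (0.31 ± 0.08) and GGA2 (0.22 ± 0.07) rose, and TMC7 (-0.41 ± 0.11) and EEF2K (-0.29 ± 0.08) fell. These 5 became 16 with that correction and 12 in the fit on PR libraries alone, 1 without either DMSO library, and 2 or 3 without the first or second library at 10 nM.

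C16orf62, which overlaps KNOP1 on the opposite strand, fell with ruxolitinib in PR cells. It measured 46.2 and 51.5 CPM in DMSO and 31.6 and 32.1 CPM in ruxolitinib (-0.60 ± 0.07, limma adjusted p = 8.6e-06), and 45.8 and 46.3 CPM in 6.5 nM paclitaxel and 33.6 and 32.2 CPM when ruxolitinib was added (-0.47 ± 0.07, limma adjusted p = 0.00038). Of the 45, 2 were called with ruxolitinib alone, where 6.92% of all genes were, and 1 with the combination, where 3.28% were. C16orf62 was the lower call in both, where 4.06% and 2.12% of all genes were lower, and NPIPA8 was the sole higher call with ruxolitinib alone (0.51 ± 0.14, where 2.86% were higher), and 0 were higher in the combination, where 1.16% were. The 2 calls with ruxolitinib alone became 5 with the correction for GC content and length, 7 in the fit on PR libraries alone, and 1 with voom or without any 1 of the 4 libraries. The 1 call with the combination became 3 and 2 in those 2 fits. In parental cells C16orf62 measured 60.8 and 59.4 CPM in DMSO and 49.2 and 47.5 CPM in ruxolitinib alone, which do not overlap and are a description, since the parental DMSO libraries chose the genes. It measured 49.9 and 53.3 CPM in 2.5 nM paclitaxel and 45.1 and 46.5 CPM with ruxolitinib added (-0.17 ± 0.07, limma adjusted p = 0.091). The difference between the lines in this response was -0.31 ± 0.10 and did not pass the test (limma adjusted p = 0.31), nor did that of any other listed gene, where 0.306% of all genes passed; 9 had an unadjusted p under 0.05, voom called 0, and the paclitaxel doses differ (2.5 and 6.5 nM).

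Some listed genes have near-identical copies, so their reads may have been divided between loci: ABCC6, NOMO2, NOMO3, NPIPA8, SMG1 and RPS15A. For the NOMO genes this could be followed, with NOMO1, named here after its values were seen, as the third copy in the flank before the run. NOMO2 and NOMO1 transcripts of GENCODE v29 are 99.5% identical over 4352 bases, and NOMO2 and NOMO3 99.7% over 4353. In DMSO, NOMO1 measured 97.9 and 105 CPM in parental and 99.9 and 97.6 CPM in DR cells, while NOMO2 measured 48.6 and 50.4 against 249 and 245 CPM and NOMO3 2.02 and 2.84 against 10.3 and 12.3 CPM. The sum of the 3 went from 149 and 158 CPM to 359 and 355 CPM, and it was 148 and 153 CPM in PR cells.

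Overlap between genes limits others. Of the 45, 13 overlap another fitted gene on the opposite strand in GENCODE v29, and reads of such partners cannot be told apart without the strand setting; they are C16orf45 with KIAA0430, C16orf62 with KNOP1, KNOP1 and GPRC5B with IQCK, ERI2 and DCUN1D3 with LYRM1, EARS2 with UBFD1, and THUMPD1 and TMEM159 with unlisted genes. ERI2 and DCUN1D3 also overlap on the same strand. By strand the 45 divide into 22 on the plus and 23 on the minus strand.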

How the data were processed

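Poly-A RNA libraries (Kapa mRNA kit, per the labels' protocols) were made from 30 samples in 15 groups of 2. The authors deposited 1 table of log2(CPM + 1) per gene and library, with CPM scaled by TMM factors; this scale was read from the table's name and values, and CPM was taken back from it. STAR 2.5.1b, edgeR and GRCh37 (hg19) are named in the submitters' processing notes. How strand was treated in counting is not given in the sources used here. This scaling assumes that most genes do not differ between libraries, so a change shared by most genes would be removed.

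From these CPM, whole reads were recovered (100% of values within 0.01 of a whole number), and genes with at least 1 CPM in at least 2 libraries were kept. Differences of log2(CPM + 1) were fitted over all 15 groups with limma 3.58.1 (R 4.3.3, 15 residual degrees of freedom), and p-values were adjusted by Benjamini-Hochberg over all 12743 genes; a call is an adjusted p under 0.05. Of the comparisons, 11 were tested, and 10 that share the DMSO libraries behind the choice of genes were described. The difference between the lines in the response to added ruxolitinib was tested besides. Data were simulated for the comparison of DR with Par at 1 µM doxorubicin, with 12743 genes. The test recovered 49 of 67 genes set to a 1.5-fold difference, 67 of 67 set to 2-fold and 66 of 66 set to 4-fold. Genes of low mean CPM, such as C16orf45, ABCC6 and CRYM, were not among those set to differ. False calls were 6 among 12543 unchanged genes. Few genes were changed, all upward, and no shift along GC content was simulated, whereas 71.4% of genes were called in the real comparison. The simulated recovery and false-call rate therefore do not carry over to that comparison. Tables and figures were made with Python 3.11.15, pandas 2.3.3, numpy 2.4.6, scipy 1.17.1 and matplotlib 3.10.9.

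The members, gene lists and tests were chosen with earlier results of these data known. Genes named in the text were those listed, by role, with the 5 of largest difference in each direction among the called genes of each tested comparison. Alternatives were another pseudocount (0.25 CPM), no filter, median-of-ratios scaling, a replicate block, fits on only the lines compared, voom on recovered reads, correction for GC content and length, and leaving out each library. Whether replicate numbers pair libraries across groups was not settled, and the main fit did not use them.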

Additional observations from a re-analysis of the deposited data

How the results depend on the processing

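The 39 calls between DR and Par cells at 1 µM doxorubicin were 37 to 42 under the alternatives other than leaving out a library, and no listed gene reversed in any comparison. Without 1 library they were 36 to 38, the higher calls 34 to 35 and the lower calls 2 to 3. Over the same leave-outs the calls were 13 to 21 for PR against Par in paclitaxel, 3 to 5 in ruxolitinib, 6 to 10 for the DR dose, 26 to 34 for the parental dose, 5 to 13 for parental paclitaxel and 1 to 13 for ruxolitinib added in parental cells. In PR cells they were 0 to 0 for 6.5 nM paclitaxel, 1 to 3 for 10 nM, 1 to 1 for ruxolitinib and 1 to 1 for the combination. Correction for GC content and length gave 18 calls for PR against Par in ruxolitinib, 19 for the DR dose, 13 for parental paclitaxel, and 1, 16, 5 and 3 in the PR comparisons, in the order above. Fits on only the lines compared gave 3 for parental paclitaxel, 4 for ruxolitinib added in parental cells, and 1, 12, 7 and 2 in the PR comparisons. Voom gave 1 for ruxolitinib in PR cells. The shares of all genes called under these alternatives are not given, so no change in count can be read as particular to the listed genes. The causes were not tested. Over 105 pairs of groups the correlation of deviations between replicates ran from -0.69 to 0.65, with 30 over 0.1. Replicates also differed along GC content, so these correlations cannot decide whether replicate numbers pair the libraries. With the replicate block the calls between DR and Par cells were 38, those for PR against Par 23 in paclitaxel and 8 in ruxolitinib, and those for ruxolitinib added in parental cells 11. With crossed numbers, added after seeing the data, 3 comparisons gave 23, 31 and 8 calls. Depth limits C16orf45, ABCC6 and CRYM, which lie near 1 CPM or below it in most libraries.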
